A study of Mus musculus with 6 samples.

Results

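Complement is the set of plasma and cell-surface proteins that tags particles and cells for uptake. The genes described here are 9 complement genes with transcripts in sorted pancreatic myeloid cells, taken by symbol from the 21780 genes of the deposited table: C1qa, C1qb, C1qc, C2, C4b, C3, Cfb, Cfp and Serping1. All 9 were in the table and all 9 passed the filter on low counts. The question was how genes of the classical pathway, the alternative pathway and a regulator compare between mice given PBS and mice given WGP, a whole glucan particle of β-glucan prepared from the yeast Saccharomyces cerevisiae. C57BL/6 mice, wild type and 6 to 8 weeks old by the study's methods, received PBS or 1 mg of WGP intraperitoneally. After 7 days live pancreatic cells positive for CD45 and CD11b were sorted, and their poly-A RNA gave 3 PBS and 3 WGP libraries. The study describes each sample as 1 independent animal from a single experiment. Its mice were of both sexes, and the sex behind each library is not given in the sources used here.

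C1q, the recognition molecule of the classical pathway, is built from A, B and C chains that are encoded by neighbouring genes, and tissue macrophages are a known source of it. C4 and C2 are cleaved by the C1 complex and together make the classical convertase, the enzyme that cleaves C3. C3 is the protein at which all routes meet. In the alternative pathway factor B, encoded by Cfb, supplies the protease of the convertase, and properdin, encoded by Cfp, stabilises it. Serping1 encodes C1 inhibitor, which inactivates the proteases of C1. The liver makes most plasma complement, while macrophages and monocytes make several components locally.

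On the GRCm38 assembly C1qb, C1qc and C1qa lie side by side on the minus strand of chromosome 4, from base 136880129 to base 136898803, a stretch of 18.7 kb. On chromosome 17 lie 4 members, all on the minus strand. These are C4b (34728380 to 34743882), Cfb (34856374 to 34862518), C2 (34862604 to 34898265) and C3 (57203970 to 57228136). In the direction of this strand 85 bases lie between the end of C2 and the start of Cfb. Cfp lies on chromosome X (20925454 to 20931555) and Serping1 on chromosome 2 (84765387 to 84775444).

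The RefSeq table of promoter windows (GRCm38.p6) held 4 of the 9 members, C1qb, C1qc, C3 and Cfp. The 250 bases before the RefSeq start were searched, and they are printed for C1qb and C1qc, neighbouring subunit genes of which C1qc passed the test and C1qb did not, and for C3, which rose. For C1qc, 151 of these bases lie within the gene span of GENCODE vM21, which starts farther upstream, so only the outer 99 bases are printed. Capitals mark matches to 6 short motifs searched on both strands.
C1qb, chr4:136886201-136886450, minus strand: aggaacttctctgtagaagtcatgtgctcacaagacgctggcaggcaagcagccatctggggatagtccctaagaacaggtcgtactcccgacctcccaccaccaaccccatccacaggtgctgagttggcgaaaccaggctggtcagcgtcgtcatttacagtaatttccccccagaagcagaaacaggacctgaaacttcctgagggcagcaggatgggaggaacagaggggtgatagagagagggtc
C1qc, chr4:136893066-136893164, minus strand: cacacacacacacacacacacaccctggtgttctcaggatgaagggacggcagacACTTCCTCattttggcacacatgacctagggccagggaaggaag
C3, chr17:57228137-57228386, minus strand: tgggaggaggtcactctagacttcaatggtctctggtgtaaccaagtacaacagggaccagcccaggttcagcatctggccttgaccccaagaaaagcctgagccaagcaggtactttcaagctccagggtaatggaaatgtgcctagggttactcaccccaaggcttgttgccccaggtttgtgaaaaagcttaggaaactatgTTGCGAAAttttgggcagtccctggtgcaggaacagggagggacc
The C1qc window held 1 match to the PU.1-like letters GAGGAAGT, on the opposite strand, which 2.44% of 32851 windows hold. PU.1 is a transcription factor of the myeloid lineage. The C3 window held 1 match to the C/EBP-like letters TTGCNNAA, which 9.56% of windows hold. C/EBP factors act in myeloid and acute-phase genes. Neither the C1qb nor the Cfp window held a match, and no 2 matches overlapped. The other motifs were ISRE-like GAAANNGAA (7.13% of windows), GAS-like TTCNNNGAA (7.02%), a MARE half-site TGCTGAC (3.81%) and kB-like GGANTTNCC (3.15%), and none was found in the 4 windows. A match describes these letters only and is no evidence that a factor binds.

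Libraries held between 35334645 and 43341834 counts. The 6 macrophage markers, among them Adgre1, Csf1r, Cd68, Mertk and Fcgr1, summed to 3732 to 7019 CPM (counts per 1000000 counts of the library, its size scaled by edgeR's TMM factor) in the PBS and 4866 to 5029 in the WGP libraries, and 1 of these genes, Fcgr1, passed the test. All 7 resident macrophage markers were lower in the WGP libraries, where their sum was 4190 to 6160 against 10820 to 23420 CPM. Of 6 markers of Ly6C-high monocytes 4 were higher, with sums of 3157 to 3561 against 699 to 1147 CPM. WGP replicate 2 stood apart in fibroblast markers (Col1a1, Col1a2, Col3a1, Dcn, Lum, Pdgfra), which summed to 1817 CPM there and to 33.7 to 175.5 in the other libraries. PBS replicates 2 and 3 held 8972 and 10063 counts of Y-linked genes and the other 4 libraries 0 or 1, so no WGP library matched them. Of 4 hepatocyte markers 3 were at 0 in every library, and Alb was at most 1.02 CPM. Acinar markers, from the enzyme-secreting cells of the pancreas, were lower for 5 of 6 genes, with sums of 881 to 3653 CPM in PBS and 243 to 428 CPM in WGP libraries.

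Of the 9 members 5 changed between WGP and PBS libraries (edgeR's quasi-likelihood test, adjusted p up to 0.05). C3 rose 10.4-fold and Cfb 38.1-fold. C1qa was 2.53-fold, C1qc 2.43-fold and C4b 2.52-fold lower. C1qb, C2, Cfp and Serping1 did not pass the test. Over all 14429 genes tested, 7.54% were called higher (1088 genes) and 6.81% lower (983 genes). The median log2 fold change was -0.78 over the 9 members and -0.05 over all genes tested.

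**Figure D1:**
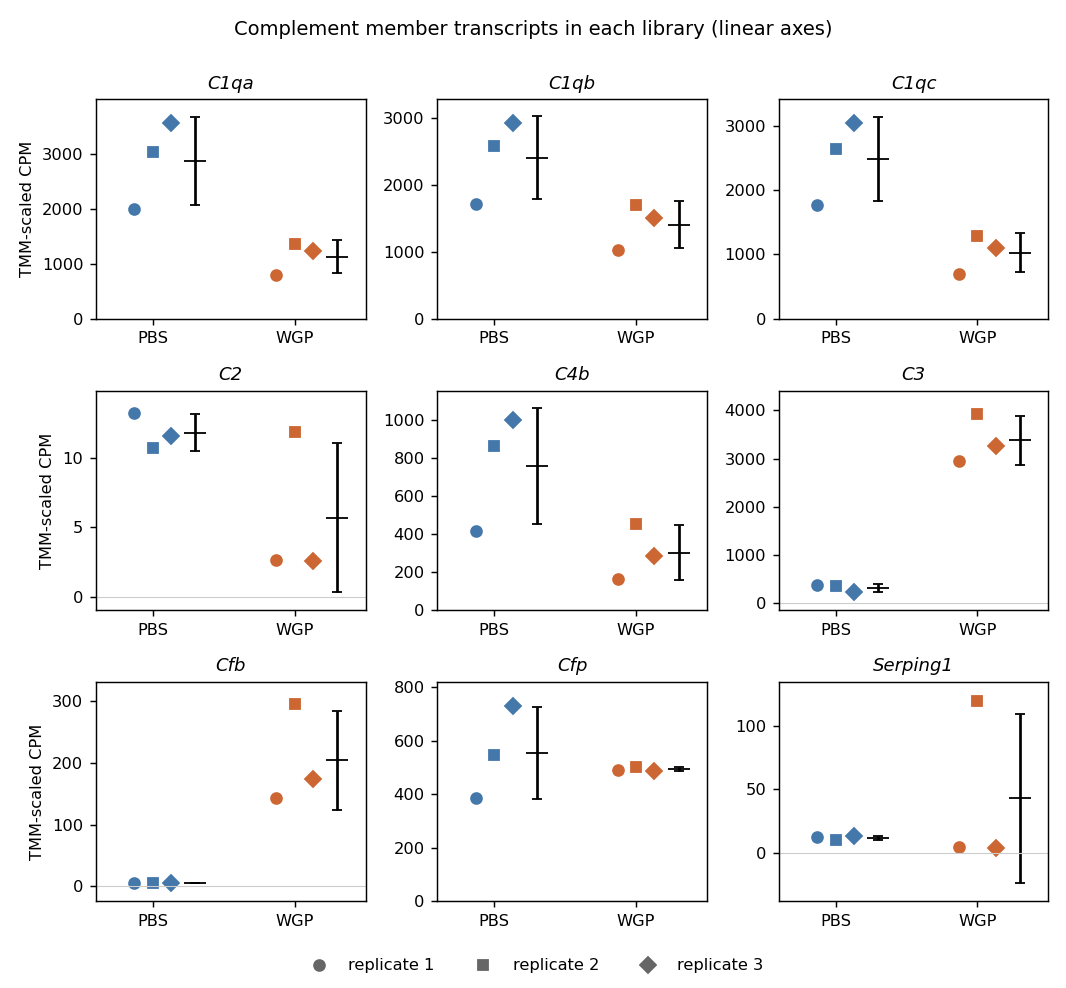
TMM-scaled CPM (linear axes, 1 panel for each gene) of the 9 complement members in the 3 PBS and 3 WGP libraries. Points are libraries, and the black bar is the mean with its SD (n = 3). C3 and Cfb are higher in every WGP library than in any PBS library, and Serping1 is at 119.7 in WGP replicate 2 and at most 13.1 elsewhere.

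Among the recognition subunits of the classical pathway, C1qa stood at 1986, 3035 and 3556 CPM in PBS replicates 1, 2 and 3 and at 788, 1365 and 1231 CPM in the WGP libraries. The C1qa groups did not overlap. It was 2859 ± 800 (SD, n = 3) against 1128 ± 302 CPM, a log2 fold change of -1.34 ± 0.26 (SE) with an adjusted p of 0.00578. In bulk RNA fewer cells of a type and less RNA per cell cannot be told apart.

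C1qc was at 1773, 2650 and 3050 CPM after PBS and at 691, 1282 and 1108 CPM after WGP. Every WGP value lay below every PBS value here too. The log2 fold change was -1.28 ± 0.26 (SE), adjusted p = 0.00797. C1qb, which encodes the B chain, was at 1713, 2585 and 2927 CPM and at 1023, 1698 and 1501 CPM. The C1qb groups did not overlap, although PBS replicate 1 and WGP replicate 2 were close. Its log2 fold change of -0.78 ± 0.24 (SE) did not pass the test (adjusted p = 0.0585). In 9 of 18 alternative fits it did pass, among them DESeq2 (adjusted p = 0.00643) and the fits without PBS replicate 1 (0.00739) or without WGP replicate 2 (0.0403). It did not pass without PBS replicate 2 (0.177) or 3 (0.166) or without WGP replicate 1 (0.189) or 3 (0.125).

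Within a library C1qb was higher relative to C1qa after WGP, and C1qc was not separated. The ratio of C1qc to C1qa counts was 0.893, 0.873 and 0.858 in the PBS libraries and 0.878, 0.939 and 0.900 in the WGP libraries, which overlap (log2 difference 0.05, exact permutation p = 0.2, two-sided). The C1qb to C1qa ratio was 0.863, 0.852 and 0.823 after PBS. It was 1.30, 1.24 and 1.22 after WGP, above every PBS value. On the log2 scale it was -0.24 ± 0.04 against 0.33 ± 0.05 (SD, n = 3), or 1.48-fold higher, where p = 0.1 is the smallest value that an exact permutation of 3 against 3 libraries can give (0.18 after Benjamini-Hochberg adjustment over 9 ratios). The difference did not depend on scaling between libraries, since both genes come from the same library. None of the exon bases of the C1q genes lay in another gene, and none of their 75-base sequences occurred in another gene's exons.

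C1q transcripts were also set against macrophage genes in the same library, as a description with no test. C1qa to Csf1r, the receptor for macrophage colony-stimulating factor, stood at 0.989, 0.779 and 0.847 in the PBS libraries. After WGP it was 0.280, 0.528 and 0.449, below all PBS values. Against Mrc1, the mannose receptor of resident macrophages, the order turned. C1qa to Mrc1 was 1.47, 0.995 and 1.04 after PBS and 2.35, 3.69 and 3.64 after WGP. For Cd163, a haemoglobin scavenger receptor, the C1qa ratio was 8.55-fold higher. C1qa was thus lower relative to Csf1r and higher relative to Mrc1 and Cd163. Its ratio to Apoe, an apolipoprotein made by macrophages, was 0.274, 0.234 and 0.252 after PBS and 0.225, 0.280 and 0.227 after WGP, with overlapping groups. The ratio to Maf, a transcription factor of resident macrophages, overlapped likewise, at 3.51 to 4.16 against 3.15 to 5.49. The part of the lower resident macrophage markers in the lower C1q was not tested.

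**Figure D2:**
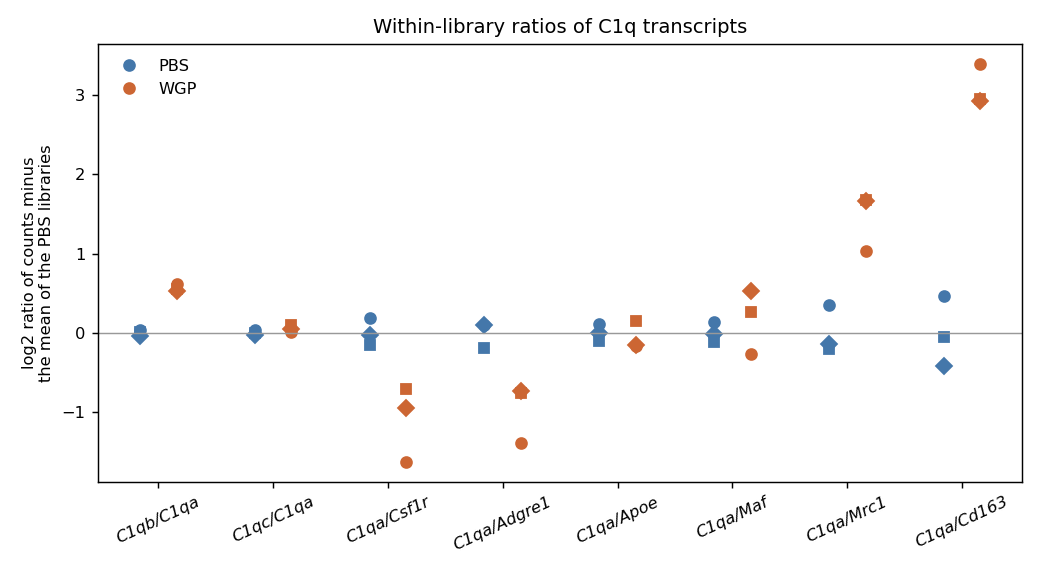
Log2 ratio of counts within each library (y axis), minus the mean of the 3 PBS libraries, for C1q subunits against each other and for C1qa against macrophage genes (x axis). Points are libraries. C1qb/C1qa is 0.57 higher after WGP while C1qc/C1qa and C1qa/Apoe overlap between groups.

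C4b encodes the C4 that mouse cells use in the classical and lectin convertases. It was at 415, 860 and 996 CPM in PBS and at 164, 454 and 285 CPM in WGP libraries. WGP replicate 2 lay above PBS replicate 1, so the groups overlapped. The log2 fold change was -1.33 ± 0.38 (SE) with an adjusted p of 0.0421, and 7 of 18 alternatives lost the call, DESeq2 (adjusted p = 0.0568) among them. Leaving out PBS replicate 2 or 3 or WGP replicate 1 or 3 ended it as well (edgeR adjusted p = 0.119 to 0.132). Its ratio to C1qa overlapped between groups, with 0.209 to 0.283 in the PBS and 0.208 to 0.332 in the WGP libraries (exact permutation p = 0.9). Of its 75-base sequences 22.7% also occur in C4a, a near-identical gene that was not analysed here, so its counts depend on how shared reads were treated.

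The Y-linked counts moved with the group. When the fit held a term for them, no member was called lower, and the log2 fold changes were -0.82 for C1qa (adjusted p = 0.0756), -0.79 for C1qc (adjusted p = 0.106) and -0.46 for C4b (adjusted p = 0.569). C1qb had a log2 fold change of -0.28 in that fit. The difference in that fit rests on PBS replicate 1 against the WGP libraries. PBS replicate 1 had the lowest C1qa, C1qb, C1qc and C4b of its group. It also stood apart in cell type markers, with summed macrophage markers of 3732 CPM against 6546 and 7019 in PBS replicates 2 and 3. Its 8 neutrophil markers summed to 5224 CPM against 2396 and 1184, and its 5 B cell markers to 2414 CPM against 621 and 361. The part of these markers in its C1q and C4b levels was not tested. For the C1q genes it was still above every WGP library.

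C2, the protease of the classical convertase, was a low transcript at 13.2, 10.7 and 11.6 CPM in PBS libraries. WGP libraries held 2.63, 11.9 and 2.57 CPM, so WGP replicate 2 sat within the PBS range and the others far below it. The log2 fold change was -1.05 ± 0.60 (SE), adjusted p = 0.311. Without WGP replicate 2 it was -2.18, adjusted p = 0.00993. Part of C2 and Cfb lies in a read-through gene, Gm20547, which covers 42.8% of C2 and 79.5% of Cfb exon bases on the same strand and had 0 counts in all 6 libraries. The levels of C2 and Cfb per length could therefore be too low.

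C3 was the member with the largest gain in level. It stood at 384, 359 and 235 CPM after PBS. After WGP it was at 2942, 3930 and 3253 CPM, so the lowest WGP value lay far above the highest PBS value. The means were 326 ± 80.1 and 3375 ± 505 CPM (SD, n = 3), a log2 fold change of 3.37 ± 0.23 (SE) with an adjusted p of 1.49e-05. All 18 alternatives called it, with log2 fold changes of 3.14 to 3.51. By mean CPM C3 went from rank 450 to rank 19 of 21780 genes, and it took 0.284% to 0.376% of the counts in the WGP libraries.

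Cfb had the largest fold. PBS libraries held 4.92, 5.16 and 5.99 CPM, close together and low. WGP libraries held 142.6, 295 and 174.6 CPM, with the highest in WGP replicate 2. The means were 5.35 ± 0.56 and 204 ± 80.3 CPM (SD, n = 3), a log2 fold change of 5.25 ± 0.30 (SE) with an adjusted p of 5.58e-06. It was called under all alternatives, and its rank went from 9748 to 1008. Libraries had no molecular identifiers, and the most frequent low count per library was 18 to 39 reads. Divided by it, the PBS Cfb counts amount to 4.85 to 9.07 units, so the PBS level may rest on few molecules, whereas WGP libraries had 246 to 382.

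Properdin did not pass the test. Cfp was at 385, 547 and 732 CPM after PBS and at 493, 503 and 487 CPM after WGP, inside the PBS range. Its log2 fold change was -0.17 ± 0.21 (SE), adjusted p = 0.676, and its sign turned without PBS replicate 3 and with the Y-linked term. The ratio of Cfb to Cfp counts was 0.0128, 0.00943 and 0.00818 in PBS and 0.290, 0.587 and 0.359 in WGP libraries. That is 39.6-fold higher, with no overlap (exact permutation p = 0.1, the smallest possible). Against C1qa, the count ratio of Cfp was 2.33-fold higher, that of C3 26.6-fold and that of Cfb 92.2-fold, each with separated groups and the same p of 0.1 (exact permutation; 0.18 adjusted over the 9 ratios).

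Serping1, the regulator, was decided by 1 library. It was at 12.2, 9.88 and 13.1 CPM in PBS and at 4.53, 119.7 and 3.76 CPM in WGP libraries. WGP replicate 2 was 9.14 times the highest other library, while WGP replicates 1 and 3 lay below all PBS values. The log2 fold change was 1.86 ± 1.05 (SE), adjusted p = 0.308. Without WGP replicate 2 it was -1.50, adjusted p = 0.0417. With that library left out 6 members were called lower (C1qa, C1qb, C1qc, C4b, C2 and Serping1) in place of 3. Over all genes tested 934 of 14183 were lower in that fit, against 983 of 14429 with all libraries.

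The same library was high in stromal markers. Its fibroblast sum was 10.4 times and its mesothelial sum (62.9 CPM) 6.23 times that of the highest other library. Col1a2, a collagen chain, was at 386 CPM in WGP replicate 2 and at 4.01 to 16.5 CPM in the other libraries. Clu, C1s1 and C1ra were highest there as well. The count ratio of Serping1 to Col1a2 was 0.310 in WGP replicate 2 and 0.494 to 0.939 in the other libraries. Its ratio to Dcn, a proteoglycan of connective tissue, was 0.572 in that library, 0.736 and 0.842 in the other WGP libraries and 0.215 to 0.477 in the PBS libraries. C3 and Cfb were also highest in that library, yet only 1.27 and 1.86 times the mean of WGP replicates 1 and 3, and without it both were still called. The part of stromal RNA in Serping1 was not tested.

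**Figure D3:**
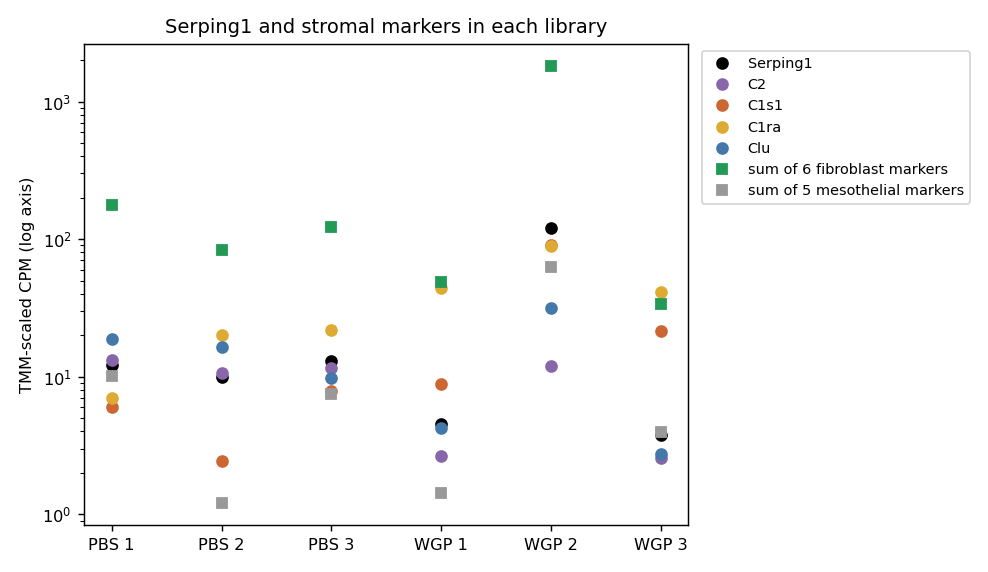
TMM-scaled CPM (log axis) of Serping1, C2, C1s1, C1ra and Clu and of the summed fibroblast and mesothelial markers in each of the 6 libraries (x axis). Circles are genes and squares are sums. Serping1 reaches 119.7 and the fibroblast sum 1817 in WGP replicate 2, against at most 13.1 and 175.5 in the other libraries.

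Levels of different genes were compared per kilobase of exon. In PBS libraries the mean CPM per kb was highest for C1qa (2749), followed by C1qb (2214), C1qc (1290), Cfp (319.5), C4b (132.9), C3 (63.3), Serping1 (5.04), C2 (3.05) and Cfb (1.90). The ranges of C1qa and C1qb overlapped, as did those of C1qb and C1qc and of C4b and C3, while the other neighbours were apart. Within each PBS library the order was the same, except that C3 lay above C4b in PBS replicate 1. In WGP libraries the order was C1qb (1293), C1qa (1085), C3 (656), C1qc (532), Cfp (284.6), Cfb (72.2), C4b (52.8), Serping1 (18.3) and C2 (1.47). C3 moved from the sixth place to the third and Cfb from the last to the sixth. The places of Cfb and C2 are uncertain in both groups. Their overlap with Gm20547 (79.5% and 42.8% of exon bases) could make their levels per kb too low. The ranges of neighbours in the WGP order overlapped, except that Cfp lay below C1qc and above Cfb, and every WGP library had this order of the 9 genes.

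As a share of the summed per-length level of the 9 members, the C1q chains together made up 92.1%, 92.4% and 92.2% in PBS and 68.7%, 73.2% and 75.3% in WGP libraries. C1qa went from 40.5% ± 0.53 to 27.0% ± 1.6 (SD, n = 3) while C1qb was at 32.7% ± 0.39 and 32.3% ± 0.86. C3 took 1.56%, 0.967% and 0.547% of the sum after PBS. It took 19.1%, 15.8% and 15.2% after WGP. Cfb went from 0.029% to 1.78%, shares that could be too low because of its overlap with Gm20547. The mixture after WGP was thus still mostly C1q by transcript, with a larger part of C3.

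**Figure D4:**
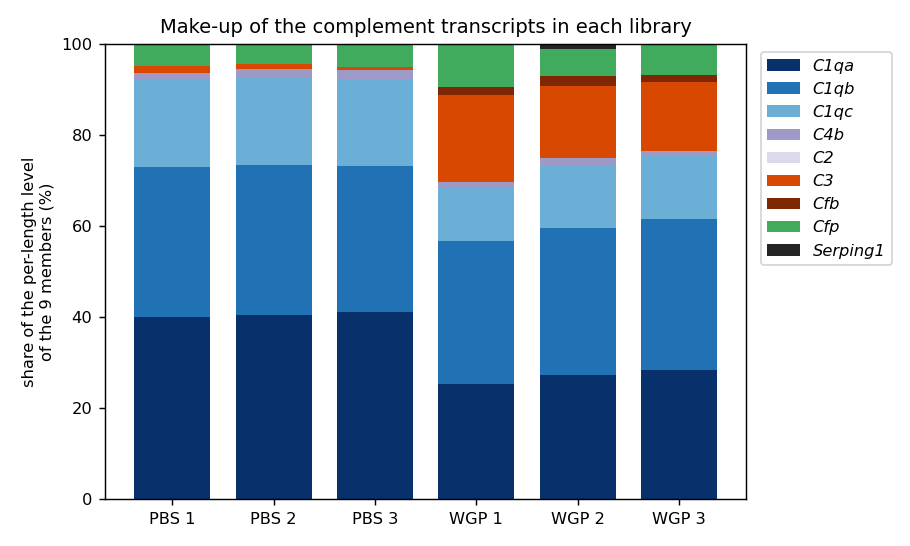
Share (%) of the summed CPM per kb of the 9 members taken by each gene (colours) in each library (x axis). The C1q chains hold 92.1% to 92.4% in the PBS and 68.7% to 75.3% in the WGP libraries, and C3 holds 15.2% to 19.1% after WGP.

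Of 45 further complement genes listed from textbook knowledge, 44 were in the table and 29 were tested. In WGP libraries 5 were higher and 6 lower, and 18 were not called. Over all 14429 genes tested 7.54% were called higher and 6.81% lower. Their median log2 fold change was -0.32, also with the 5 genes at 0 in a group set to their bound, against -0.05 over all genes tested. Genes at 0 in every library numbered 12, among them Mbl1 and Mbl2 (mannose-binding lectins), Cfi (factor I) and C7, C8a, C8b and C9 of the terminal pore.

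The proteases of the C1 complex were higher. C1ra, which activates C1s, was at 7.02, 19.9 and 21.9 CPM in PBS and 43.8, 89.1 and 41.2 CPM in WGP libraries, with no overlap (log2 fold change 1.83 ± 0.43 (SE), adjusted p = 0.0171). C1s1, which cleaves C4 and C2, was at 6.06, 2.44 and 7.84 CPM and at 8.90, 89.9 and 21.6 CPM. Its log2 fold change of 2.88 ± 0.76 (SE) had an adjusted p of 0.0285, and most of its WGP mean came from WGP replicate 2. Without that library neither passed (C1ra 1.38, adjusted p = 0.0554; C1s1 1.48, adjusted p = 0.126). The call of C1s1 also ended with PBS replicate 1 left out (adjusted p = 0.0577) and with PBS replicate 2 left out (adjusted p = 0.109). It was lost in 7 of 18 alternatives, limma-voom (adjusted p = 0.204) and the replicate block (adjusted p = 0.126) among them. Stromal markers were high in WGP replicate 2, and their part in C1ra and C1s1 was not tested.

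Of 4 lectins tested 2 were lower. Fcna, a ficolin of macrophages, was at 315, 565 and 898 CPM after PBS and at 23.6, 83.9 and 50.8 CPM after WGP (log2 fold change -3.49, adjusted p = 0.000853). The collectin Colec12 fell by 4.09 on the log2 scale (adjusted p = 0.000675). It was 3.15 times higher in WGP replicate 2 than the mean of the other WGP libraries, and without that library it fell by 4.87 (adjusted p = 0.000171). With the Y-linked term the log2 fold changes were -2.58 for Fcna and -2.94 for Colec12, and both were called (adjusted p = 0.00795 and 0.00543). C6, of the terminal pore, had a log2 fold change of -2.25 (adjusted p = 0.0456), which was lost in 8 of 18 alternatives, with each of 5 single libraries left out (all but PBS replicate 1) among them.

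Of the 10 complement receptors 2 were lower. Vsig4, a receptor for C3 fragments on resident macrophages, was at 25.9, 42.4 and 86.2 CPM after PBS and at 0, 1.69 and 1.83 CPM after WGP (log2 fold change -5.44, adjusted p = 0.0035), a call that limma-voom did not make (adjusted p = 0.0666). Without PBS replicate 3 the log2 fold change of Vsig4 was -4.85 (adjusted p = 0.016). Cr2, a C3d receptor of B cells, fell by 3.54 (log2, adjusted p = 0.0112) but was not called without PBS replicate 1 (adjusted p = 0.0805) or by limma-voom (adjusted p = 0.106). All 5 B cell markers were lower too, with sums of 361 to 2414 CPM in PBS and 86.8 to 168.7 CPM in WGP libraries, and their part in Cr2 was not tested. The integrin chains of complement receptors 3 and 4 rose, Itgam by 0.79, Itgax by 0.58 and Itgb2 by 1.22 (log2, adjusted p = 0.00618, 0.0275 and 0.000675). Of these Itgax was lost in 7 of 18 alternatives, among them the fits without PBS replicate 2 or 3 or WGP replicate 1 or 3 (adjusted p = 0.0657 to 0.122). Itgam encodes CD11b, on which the cells were sorted.

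The anaphylatoxin receptors did not pass the test. C3ar1, for C3a, had a log2 fold change of -0.41 (adjusted p = 0.333) and C5ar1, for C5a, of -0.32 (adjusted p = 0.422). Without PBS replicate 1 both were called lower, C3ar1 at -0.65 (adjusted p = 0.0255) and C5ar1 at -0.56 (adjusted p = 0.0184). Cr1l, the rodent membrane inhibitor Crry, was at 56.3 to 70.9 CPM in all 6 libraries (log2 fold change -0.14 ± 0.16 (SE), adjusted p = 0.617). Cfd, the factor D that cleaves factor B, had 67, 22 and 104 counts in PBS libraries and 0 in WGP libraries. That is at least 69.5-fold lower at a floor of 3 counts over the group, covering counting error only, and an overestimate if single molecules gave several reads. It did not pass the edgeR test (adjusted p = 0.0694). DESeq2 and limma-voom did call it (adjusted p = 0.000374 and 0.0212).

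**Figure D5:**
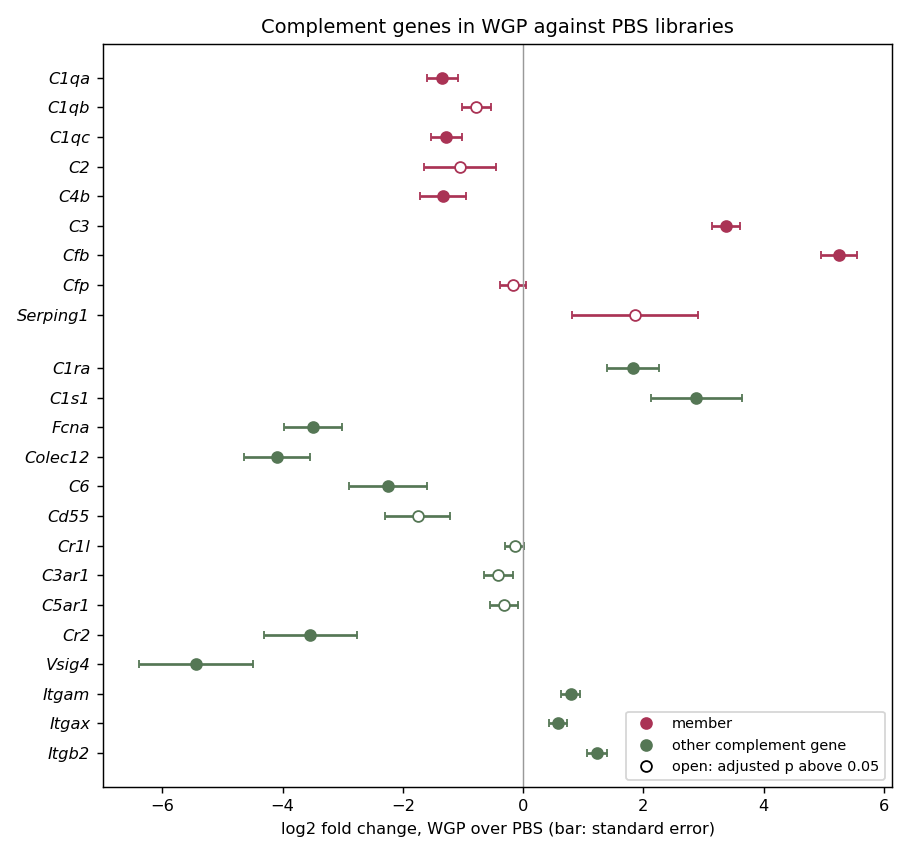
Log2 fold change of WGP over PBS (x axis; bars are the SE from edgeR's quasi-likelihood test) for the 9 members and 14 other complement genes. Filled points have an adjusted p of at most 0.05. C3 (3.37) and Cfb (5.25) lie to the right, while C1qa, C1qc, C4b and Fcna (-3.49) lie to the left.

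The genes whose log2 level over the 6 libraries was most like that of a member were listed by Pearson's r among 8560 genes, as a description in which all points share the same libraries and the WGP to PBS contrast. For C3 they included Pgd (r = 0.9995), Zbp1, Evl and Pkm. For Cfb they were Rab32, Tgtp1, Psmb10, Acsl1 and Ifi47, of which Tgtp1 and Ifi47 are interferon-inducible GTPases. For C1qa they were Mill2, Serpinb6a, Lrp6, Cacul1 and Mtmr10.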

How the data were processed

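RNA of CD45+CD11b+ pancreas cells was sequenced as single-end reads of 75 bases (3 libraries for PBS and 3 for WGP). Alignment by the authors used STAR 2.6 and mm10 (GRCm38.p6), and they deposited raw counts per Ensembl gene from HTSeq 0.10.0 (versions from the submitters' processing notes). Annotation release, strand setting and treatment of duplicates and shared reads are not given in the sources used here. The table has 21780 genes. Ribosomal protein and mitochondrial genes were not analysed here.

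Differential expression was tested with edgeR 4.0.16 (R 4.3.3), by the quasi-likelihood test after TMM normalization, on the 14429 protein-coding genes whose RLE-normalized counts added up to 10 or more. The call was an adjusted p (Benjamini-Hochberg, over all genes tested) no higher than 0.05. SE were obtained from the square root of F. CPM are scaled by TMM, and exon lengths come from GENCODE vM21. Ratios were tested by exact two-sided permutation of libraries. Alternatives used DESeq2 1.42.0, limma 3.58.1, other scalings, filters and left-out libraries. Members, lists and tests were chosen with earlier results of these data known. Named were all members, the complement genes that passed, C3ar1, C5ar1, Cr1l, Cfd, Itgam and Itgb2, cell type markers and the 5 genes most correlated with C1qa, C3 and Cfb. Clu and genes at 0 were named after their values were seen. Floors cover counting error only. The values of some genes are not reported here.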

Additional observations from a re-analysis of the deposited data

How the results depend on the processing

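C3 and Cfb were called higher under all alternatives run (18 other fits and a fold threshold), so 2 members were higher in each. The 3 members called lower became 0 with a term for Y-linked counts, 2 to 6 when 1 library was left out (6 without WGP replicate 2), and 6 without both PBS replicate 1 and WGP replicate 2, an alternative chosen after seeing the data. The 5 other complement genes called higher became 3 with the replicate block, with the Y-linked term and when a fold of 1 (log2) was also required, and 3 to 4 when libraries were left out (3 without PBS replicate 2 or WGP replicate 2). The 6 called lower became 4 with limma-voom, 9 with DESeq2, 5 to 7 with 1 library left out and 10 without both libraries. Over all genes tested, 983 of 14429 were called lower in the main fit and 945 with limma-voom. Without both libraries it was 1294 of 13880, and with DESeq2 1366 of 13324. Called higher were 1088 of 14429 in the main fit and 1016 with the replicate block. Without PBS replicate 2 or WGP replicate 2 they were 774 and 906 of 14183. Signs turned for Serping1 (-0.208 with the replicate block, -1.50 without WGP replicate 2, -1.47 without both libraries, up to 2.41 without another library), Cfp (0.36 with the Y-linked term, 0.086 without PBS replicate 3, -0.39 without both libraries), C3ar1 (0.24) and C5ar1 (0.36 with that term). C2, Cfb and Gm20547 counts summed gave 3.61 (adjusted p = 2.4e-05), which is set by Cfb, the larger count in the WGP libraries. The log2 ratio of C4b to C1qa (-0.017) ranged from -0.22 to 0.12 and that of C2 to C1qa (-0.11) from -0.68 to 0.35 when libraries were left out. The cause was not tested in these other cases. Replicate numbers did not pair the libraries (correlations of deviations 0.036, -0.066 and 0.055), and under the replicate block C1qb was called (adjusted p = 0.0158). Summing C4b with C4a was not run, since C4a was not analysed here. The median of all genes moved from -0.05 to -0.16 with library totals only. Reads per molecule limit C2, Serping1, Cfd and PBS values of Cfb, and 3 libraries a group allow no exact p below 0.1.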
